A study of Mus musculus with 2 samples.

Results

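The cells described here are 137 cells in which the transcriptional regulator gene Prdm16 was read at 5 or more unique molecular identifiers (UMIs, each one captured transcript), out of 15480 cells that passed the same quality filters. They were sought as RORgt+ dendritic cells, a rare antigen-presenting cell, and are called Prdm16-gated cells below. The filters kept barcodes with a single hashtag, at least 500 genes and at most 10% mitochondrial UMIs, and the gate also asked for at most 1 Cd3e UMI and fewer than 10 UMIs of C1qa, C1qb and C1qc together. All cells came from untreated 15-day-old mice of the genotype Gm38411-iCre-hCD2, a reporter line named for the Gm38411 locus, the iCre recombinase and human CD2. Cells had been sorted as CD3-B220-CD11c+MHC-II+ from 2 tissues, the gut-draining (mesenteric) lymph nodes, mLN, and the lamina propria of the small intestine, siLP. Each of 6 biological replicates, 3 per tissue, carried its own hashtag antibody (2, 4, 5, 6, 8 or 9), and all were sequenced in 1 gene expression library with 1 matching hashtag library. The titles and the design text name both tissues, but the tissue field of both libraries reads mLN, and no label ties a hashtag to a tissue, so hashtags are given by number and no tissue is compared.

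Dendritic cells take up antigen, present peptides of it on MHC class II to T cells and set the kind of T cell response. Conventional dendritic cells of type 1 (cDC1) and type 2 (cDC2) make up most of them, and both can mature into migratory cells that carry antigen to the lymph node under the chemokine receptor Ccr7. RORgt+ dendritic cells share the nuclear receptor RORgt with group 3 innate lymphocytes (ILC3), and they are known for inducing peripheral regulatory T cells to food and microbial antigens in early life. Integrin alpha-v beta-8, which releases active TGF-beta from its latent form, is part of that known function. Prdm16 itself is a zinc finger regulator best known from brown fat and stem cells.

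Gated cells were found in every hashtag, with 27 in hashtag 2, 26 in hashtag 4, 32 in hashtag 5, 23 in hashtag 6, 4 in hashtag 8 and 25 in hashtag 9. Hashtags 2, 4 and 5 gave shares of 1.82%, 1.61% and 1.71%, and hashtags 6, 8 and 9 gave 0.744%, 0.157% and 0.514%. The exact binomial 95% intervals of the former ran from 1.05% to 2.63% and those of the latter from 0.0428% to 1.11%, so the shares of the 2 trios were apart while their outermost intervals met. The gate counts UMIs, and the other cells held a median of 6186 to 6519.5 UMIs in hashtags 2, 4 and 5 but 12000.0 to 12892 in hashtags 6, 8 and 9, so the order of the shares ran against depth. After every cell had been thinned to 2000 UMIs, at least 1 Prdm16 UMI was left in 2.64%, 3.25% and 2.77% for the former trio and in 1.01%, 0.248% and 0.7005% for the latter. Binomial intervals cover counting error only. Gated cells were deeper than the other cells, with median UMIs of 7719, 10072, 12406, 23476, 12776.5 and 24564 in hashtags 2, 4, 5, 6, 8 and 9. Hashtag 8, with 4 gated cells, was too small to be summed into a library, and tests rest on the other 5 hashtags, whose summed gated libraries held 273465 to 618984 UMIs.

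**Figure D1:**
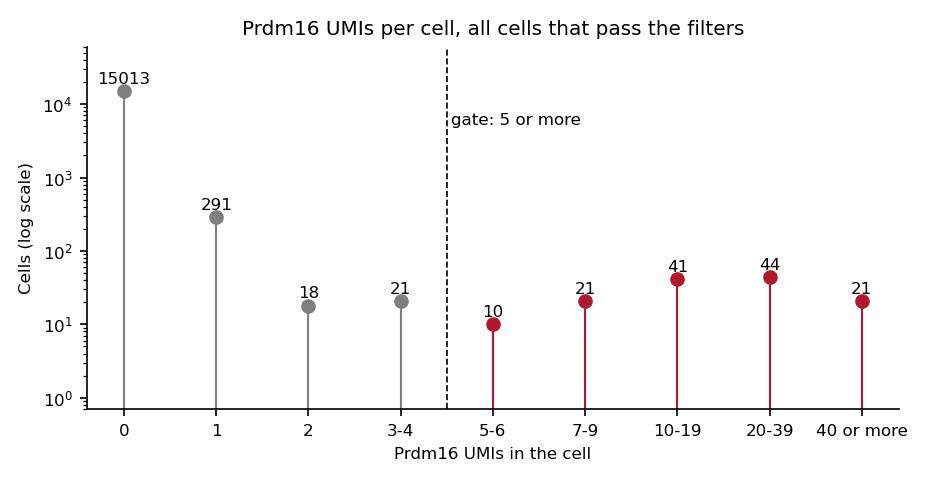
Number of cells (y axis, log scale) by Prdm16 UMIs in the cell (x axis, binned) over all 15480 cells. Of these, 15013 had no Prdm16 UMI, few cells lay near the dashed gate line, and 65 gated cells held 20 or more.

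The values that chose the cells are given as a description. Prdm16 was read in 3445 UMIs over the gated cells, at 2717, 2829, 2125, 814, 948 and 851 CPM (UMIs of the gene scaled to the library's total, the usual counts-per-million scale) in hashtags 2, 4, 5, 6, 8 and 9, against 1.44 to 6.10 CPM in the other cells. The gate lay in a sparse stretch: 21 cells held 3 to 4 Prdm16 UMIs just outside it, and 10 cells held 5 to 6 just inside it. The hemidesmosomal collagen gene Col17a1 was read in 9 of the 21 cells outside and in 5 of the 10 inside, against 62 of the 65 cells with 20 or more Prdm16 UMIs. Among cells without a Prdm16 UMI that met the other clauses, Col17a1 was read in 0.876%. The Cd3e and complement clauses removed 0 cells with 5 or more Prdm16 UMIs. The same gate also held 83 barcodes called multiplets, 36 unassigned and 5 blank barcodes, which were left out. Multiplets made up 31.8% of the 261 gated barcodes and 19.4% of the 21828 barcodes that passed the other filters. Free RNA, read from barcodes of at most 100 UMIs, held Prdm16 at 21.9 CPM, above the other cells and below every gated library.

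The other markers proposed for the type were also high in the gated cells. Col17a1 stood at 1239.7, 1459.5, 779.9, 457, 503 and 378 CPM in hashtags 2, 4, 5, 6, 8 and 9 and at 0.550 to 4.15 CPM in the other cells. The polymeric immunoglobulin receptor gene Pigr stood at 36.6, 46.4, 15.7, 73.3, 172 and 80.8 CPM against 0 to 1.37 CPM, and the chemokine receptor gene Ccr6 at 186, 176, 115, 134, 115 and 118 CPM against 2.14 to 38.9 CPM. For each of the 3 genes every gated library lay above every library of other cells. Per cell, Col17a1 was read in 119 of 137 gated cells, Ccr6 in 93 and Pigr in 35. Thinned to 2000 UMIs, the shares were 55.9%, 29.4% and 7.35%, against 0.259%, 2.95% and 0.00683% of the other cells. Among the 42 cells of the ILC3 gate described below, Ccr6 was left in 42.9%, and Col17a1 and Pigr in 0. These markers had been chosen from earlier results of these data, so no test is given.

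The reporter was read in these cells. Gm38411 stood at 62.2, 92.9, 68.0, 44.0, 86.2 and 71.1 CPM in gated cells and 0.0750 to 1.94 CPM in the others, and the human CD2 sequence at 21.9, 59.7, 89.0, 42.2, 71.9 and 61.4 CPM against 0.111 to 2.27 CPM. A Gm38411 UMI was found in 65 gated cells and an hCD2 UMI in 59. In the 136 gated cells of at least 2000 UMIs, 42 had both, 23 had Gm38411 only, 17 had hCD2 only and 54 had neither. The iCre sequence was nearly unread, with 11 UMIs in 9 gated cells. The added tdTomato sequence stood at 128, 126, 157, 446, 474 and 498 CPM in gated cells and 31.5 to 153 CPM in the others. Free RNA held tdTomato at 129 CPM, so its level in hashtags 2, 4 and 5 was close to that of free RNA. No tdTomato allele is named in the labels, and since no source used here says whether intronic or antisense reads entered the counts, reads of transcripts that overlap Gm38411 cannot be told apart.

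**Figure D2:**
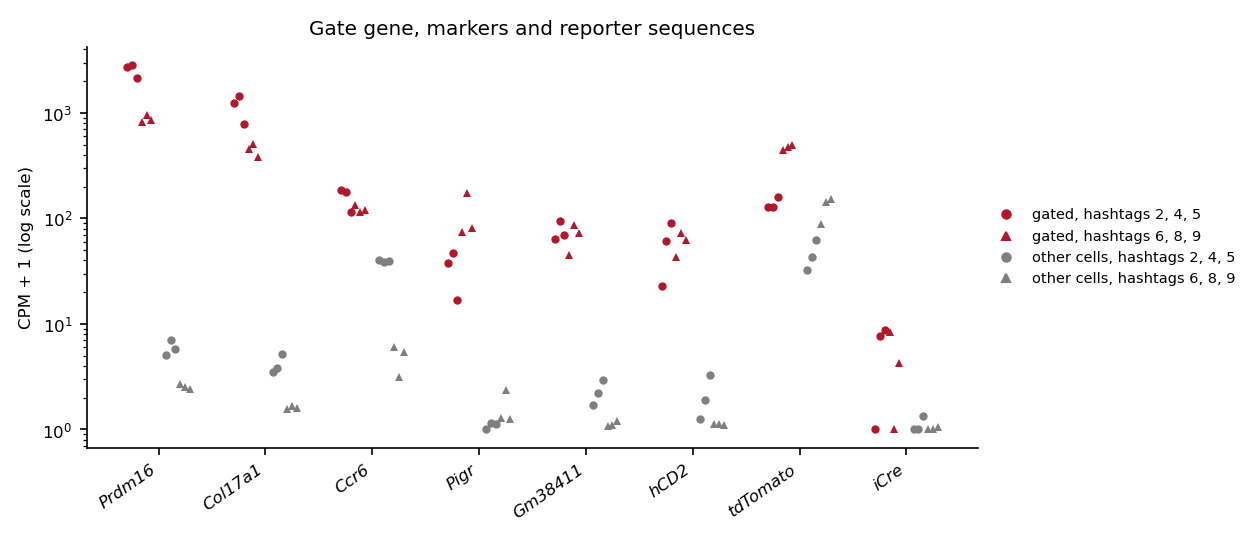
Level of the gate gene, the markers and the reporter sequences (y axis, CPM + 1, log scale) in each hashtag, for gated cells (red) and the other cells (grey). Gated cells stand above the other cells in every hashtag for Prdm16, Col17a1, Ccr6, Pigr, Gm38411 and hCD2, and Prdm16 and Col17a1 are higher in hashtags 2, 4 and 5 than in 6, 8 and 9.

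The gated cells carried dendritic cell genes, while some defining genes of several other lineages were at 0. All 18 genes of a dendritic cell core list were read in them, and Cd74, the MHC class II invariant chain gene, was read in all 137 cells. The T cell genes Trbc1, Lck and Lat, the cytotoxic genes Nkg7 and Gzma, the ILC3 products Il22, Il17a and Il17f, and the lymphoid surface gene Thy1 had 0 UMIs, which allows up to 1.37 CPM (3 counts over all gated cells). Pooled over the other cells, Trbc1 and Lck stood at 5.83 and 6.26 CPM, and Lat and Thy1 at 2.05 and 1.98 CPM. Nkg7, Gzma, Il22, Il17a and Il17f did not exceed 1.37 CPM there either, so their 0 does not set the gated cells apart. The summed level of the 16 genes of the T and NK cell list ran from 37.2 to 168.2 CPM over the 5 libraries of gated cells and from 35.9 to 460.9 CPM in the other cells, with 7 genes at 0. That of the 15 ILC3 genes was above the other cells, from 1971 to 2315 CPM against 770.9 to 1197 CPM, with 5 genes at 0. That of 14 macrophage genes ran from 182.6 to 426.6 CPM against 389.4 to 991.0 CPM, with Cd163 at 0. The T and NK cell list holds Cd3e, and the macrophage list holds C1qa, C1qb and C1qc. The gate limits these genes, so their part in both sums is no independent evidence. Its clauses on them removed 0 cells with 5 or more Prdm16 UMIs. The summed level of 11 B and plasma cell genes ran from 150.2 to 292.5 CPM against 64.9 to 139.5 CPM, with Jchain and Mzb1 at 0. The immunoglobulin light chain gene Igkc carried part of this: it stood at 73.1, 43.1, 62.8, 14.7, 0 and 8.08 CPM in gated cells and 0.789 to 5.82 CPM in the others (log2 fold change 3.75 ± 0.52, adjusted p = 0.000141), in 22 of 137 cells, with 14 of its 70 UMIs in 1 cell. The summed level of 10 plasmacytoid dendritic cell genes ran from 652.7 to 1664 CPM against 261.3 to 584 CPM, with Siglech and Cox6a2 at 0. Of the 8 tested, Bst2 and Runx2 were called higher. Ccr9 was called lower, at 0 to 21.9 CPM against 24.9 to 56.9 CPM over the 5 libraries. The median log2 fold change of the 8 was -0.67, against -0.16 over all genes. Pooled over the other cells, Cd163, Jchain, Mzb1 and Cox6a2 did not exceed 1.37 CPM either, while Siglech stood at 2.86 CPM. The free RNA level of Igkc was 11.4 CPM, and the part of free RNA or of doublets in these values was not tested.

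Across all genes, the gated cells were compared with the 15343 other cells that passed the filters, within hashtags, on raw counts summed per hashtag and class (edgeR's quasi-likelihood test, with the hashtag as a block, a call being an adjusted p under 0.05 by Benjamini-Hochberg). Of 13951 genes tested, 1219 were called higher (8.74%) and 2026 lower (14.5%), 23.3% in all, and the median log2 fold change of all genes was -0.16. Higher calls made up 37.6% of calls here and 50.4% with DESeq2. The other cells were a mixture, in which gates on raw UMIs took 1722 cells as cDC1, 2080 as cDC2 and 642 as migratory, so a lower value means lower than in that mixture. The p-values measure the spread between replicates, each of them 1 hashtag. In a summed library, fewer cells with a gene and less RNA per cell cannot be told apart.

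Of the list of Aire-linked and tissue-type genes, 10 were tested, of which 2 were called higher (Aire and Gpr39) and 3 lower. Kcnn4 was among those lower, with 1 UMI over all gated cells. It stood at 0 to 2.62 CPM in the 5 gated libraries and 2.75 to 16.7 CPM in the other cells of those hashtags. Ackr3, a scavenging receptor of the chemokine CXCL12, stood at 296, 172, 434, 156, 374 and 192 CPM in gated cells and 0.175 to 2.28 CPM in the others (log2 fold change 8.07 ± 0.38, adjusted p = 1.13e-08). Adam12, a membrane metalloprotease gene, stood at 428, 451, 374, 343, 259 and 275 CPM against 0.525 to 16.6 CPM (log2 fold change 6.80 ± 0.54, adjusted p = 9.76e-07). Both were above every library of other cells in every hashtag. Prr29, at 76.8 to 216 CPM in gated cells, and Nccrp1, at 51.2 to 266 CPM, were likewise above all libraries of other cells (log2 fold changes 7.29 and 6.56). The ILC3 gated below, a small part of the other cells, also carried Adam12 and Prr29. Thinned to 2000 UMIs, Adam12 was read in 40.4% of gated cells and 52.4% of ILC3, and Prr29 in 11.0% and 11.9%. For Ackr3 the shares were 26.5% and 4.76%, and for Nccrp1 21.3% and 2.38%. Cep112, a centrosomal protein gene, was read in 104 of 137 cells, at 742, 607, 675, 139, 86.2 and 82.4 CPM, against 1.32 to 5.94 CPM (log2 fold change 6.39 ± 0.27, adjusted p = 5.58e-09). Tnni1, a slow muscle troponin gene, Sorcs2, a neuronal sorting receptor gene, Grifin, a lens galectin-like gene, and 2610528A11Rik were also among the 10 highest. Gpr39, a zinc-sensing receptor gene, stood at 47.5, 63.0, 47.1, 58.7, 28.7 and 87.2 CPM against 0.0877 to 0.825 CPM (log2 fold change 6.79 ± 0.43, adjusted p = 1.43e-07).

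Some raised genes came from few cells. Tnni1 had 34.2% of its 292 UMIs in 1 cell and was read in 24 cells. Prkg1, a cGMP-dependent kinase gene, had 80.9% of its 508 UMIs in 1 cell. Ackr3, Adam12, Prr29 and Cep112 were spread more evenly, with 4.73% to 6.05% of UMIs in the top cell and 76 to 104 cells with a UMI.

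Epithelial genes were mainly higher: of a list of 12, 8 were tested and 6 were called higher and 1 lower, with a median log2 fold change of 3.21 against -0.16 over all genes. Krt8, a keratin of simple epithelia, stood at 58.5, 23.2, 55.0, 110.0, 374 and 136 CPM in gated cells and 0.407 to 2.40 CPM in the others (log2 fold change 6.40 ± 0.29, adjusted p = 1.01e-08). Cldn7, a tight junction claudin gene, stood at 21.9, 53.1, 52.3, 56.8, 28.7 and 42.0 CPM against 0 to 0.857 CPM (log2 fold change 6.60 ± 0.58, adjusted p = 2.56e-06). Neither gene's gated libraries overlapped the other cells, and Krt8 was read in 45 cells and Cldn7 in 49. Fabp1, an enterocyte fatty acid-binding protein gene, was called higher overall (log2 fold change 5.75 ± 1.13, adjusted p = 0.00203), but at 567, 385, 230.3, 3.67, 0 and 35.5 CPM it was high in hashtags 2, 4 and 5 and low or at 0 in 6, 8 and 9, with 25.6% of its UMIs in 1 cell. Its paralogue Fabp2 was at 1 UMI in all gated cells, 10.6-fold lower than in the other cells by pooled CPM (95% counting interval 1.90 to 420.0), and its call was lost with DESeq2. Epcam, an epithelial adhesion gene that some dendritic cells also carry, stood at 43.1 to 158 CPM in gated cells and 7.69 to 109 CPM in the others. The call on Epcam (log2 fold change 2.15 ± 0.57, adjusted p = 0.0141) was lost without hashtag 2 (adjusted p = 0.0590) and without hashtag 4 (0.0531). Krt19, Muc2 and Phgr1, which mark absorptive and goblet epithelium, had 0 UMIs in the gated cells. Pooled over the other cells they did not exceed 1.37 CPM, the level that a 0 in the gated cells allows. The summed level of all 12 genes over the 5 libraries was 443.7 to 767.9 CPM against 16.3 to 148.8 CPM. Free RNA held Krt8 at 8.22 CPM and Fabp1 at 7.29 CPM, and their part in these levels was not tested.

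RORgt is a nuclear receptor whose class binds DNA half-sites of the letters AGGTCA, and the promoters of the markers and of the most raised genes were read for them. The sequences below are the 250 bases before the annotated start of 3 genes that stood high in the gated cells in every large library, on the gene's own strand, from RefSeq on GRCm38.p6 (the mm10 build of the files). Capitals mark AGGTCA or its reverse complement TGACCT.
Ccr6, chr17:8235793-8236042, plus strand: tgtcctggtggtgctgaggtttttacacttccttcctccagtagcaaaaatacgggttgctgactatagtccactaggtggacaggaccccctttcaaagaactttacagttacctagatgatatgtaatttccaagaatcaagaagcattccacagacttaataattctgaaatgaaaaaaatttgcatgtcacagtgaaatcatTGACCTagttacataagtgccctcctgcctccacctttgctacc
Krt8, chr15:102004343-102004592, minus strand: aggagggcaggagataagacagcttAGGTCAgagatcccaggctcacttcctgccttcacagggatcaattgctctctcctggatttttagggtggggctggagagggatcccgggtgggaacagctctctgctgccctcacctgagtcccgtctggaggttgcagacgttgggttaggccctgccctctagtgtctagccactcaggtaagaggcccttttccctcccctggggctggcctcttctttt
Cldn7, chr11:69964529-69964778, plus strand: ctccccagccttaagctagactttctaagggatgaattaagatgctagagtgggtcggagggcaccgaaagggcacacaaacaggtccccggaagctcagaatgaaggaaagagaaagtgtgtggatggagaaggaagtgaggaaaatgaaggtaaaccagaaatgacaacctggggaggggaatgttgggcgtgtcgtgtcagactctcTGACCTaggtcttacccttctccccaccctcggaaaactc
Of 15 genes looked up (the 4 markers, 9 of the 10 highest, and Krt8 and Cldn7), 12 had a window and these 3 held a match, in 4 of 17 windows. No window of Prdm16, Col17a1, Pigr or Ackr3 held one. Over all promoter windows of this length 14.0% held a match, against 11.1% of windows of the genes tested, 12.9% of those of genes called higher and 11.0% of those of genes called lower. A match is a run of letters and not a bound site.

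Genes of cDC1 were low, while the cDC2 list was mixed. Of 10 cDC1 genes, 9 were called lower and 0 higher, with a median log2 fold change of -3.46. The chemokine receptor gene Xcr1 stood at 7.31, 3.32, 2.62, 3.67, 0 and 4.85 CPM against 58.0 to 101 CPM (log2 fold change -4.62 ± 0.30, adjusted p = 2.07e-07), and Ifi205 at 0 to 9.95 CPM against 56.7 to 194 CPM (log2 fold change -5.01 ± 0.36, adjusted p = 4.12e-07). Of 12 cDC2 genes, 7 were called lower and 4 higher, with 2 higher without hashtag 9. Their summed level was above that of the other cells in every hashtag, at 2073, 2498, 2167, 1609.8, 1351 and 1522 CPM against 1718, 1853, 1659.9, 1073, 1155 and 1139.8 CPM in hashtags 2, 4, 5, 6, 8 and 9. The signal regulator gene Sirpa was among those lower, as were Cd300a (-1.92) and Cd209a (-1.86) on the log2 scale. The lectin gene Clec4a4 stood at 146, 179, 96.8, 64.2, 86.2 and 45.2 CPM against 5.25 to 41.9 CPM (log2 fold change 2.19 ± 0.24, adjusted p = 1.68e-05), and Clec10a, Mgl2 and S100a4 were the other members called higher. Of 18 core genes, 10 were called lower and 2 higher. Flt3, the growth factor receptor gene of dendritic cells, was lower (log2 fold change -1.41 ± 0.20, adjusted p = 0.000142). Zbtb46, a factor of conventional dendritic cells, stood at 143 to 252 CPM against 146 to 285 CPM and was not called (log2 fold change -0.44 ± 0.15, adjusted p = 0.0570).

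Antigen presentation and co-stimulation genes were lower than in the other cells but well read. Of 17 MHC class II pathway genes, 10 were called lower and 0 higher, at a median log2 fold change of -0.61. H2-Ab1 stood at 1671, 1635, 1662, 2761, 2817 and 3313 CPM and Cd74 at 3986, 5499.7, 5281, 7607, 6841 and 8533 CPM, against 2384 to 5116 and 6062 to 12708 CPM (log2 fold change -0.87 ± 0.12, adjusted p = 0.000180 and log2 fold change -0.66 ± 0.13, adjusted p = 0.00212). March1, the ubiquitin ligase gene that removes MHC class II from the surface, fell most in the list (log2 fold change -2.95 ± 0.35, adjusted p = 3.59e-05). Of the 17 co-stimulatory and co-inhibitory ligands tested, 9 were called lower and 2 higher. Cd86 stood at 69.5, 103, 236, 435, 1365 and 539.6 CPM against 352 to 3112 CPM (log2 fold change -2.23 ± 0.28, adjusted p = 6.08e-05), and Cd80 (-1.83) and Cd274, which encodes PD-L1 (-2.06), fell on the log2 scale. The ICOS ligand gene Icosl rose, at 421, 318, 332, 64.2, 14.4 and 58.2 CPM against 26.1 to 121 CPM (log2 fold change 1.21 ± 0.20, adjusted p = 0.000535). Cd40 stood at 55.0 to 159 CPM in gated cells and 51.8 to 151 CPM in the others, and its difference was not called (log2 fold change -0.07 ± 0.17, adjusted p = 0.807). Among 15 MHC class I genes, 2 were called higher and 3 lower.

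Maturation genes were mainly higher. Of 14 migratory genes, 8 were called higher and 1 lower. Ccr7 stood at 278, 249, 345, 579, 273 and 401 CPM against 123 to 310.5 CPM (log2 fold change 0.71 ± 0.18, adjusted p = 0.0109), and the call was lost with a library of 4 cells from hashtag 8 added (adjusted p = 0.0914). The cytokine feedback gene Socs2 stood at 516, 454, 458, 106, 172 and 95.3 CPM (log2 fold change 1.90 ± 0.23, adjusted p = 4.51e-05), and the amino acid oxidase gene Il4i1 at 772, 491, 636, 172, 187 and 95.3 CPM (log2 fold change 1.58 ± 0.25, adjusted p = 0.000449). Birc2, an inhibitor of apoptosis gene, rose too (log2 fold change 1.43 ± 0.17, adjusted p = 3.07e-05). The member called lower was the chemokine gene Ccl17 (log2 fold change -2.58 ± 0.48, adjusted p = 0.00144), at 3.66, 3.32, 5.23, 9.17, 0 and 9.69 CPM. Chemokine genes as a list were low, with 9 of 15 tested called lower and 0 higher.

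**Figure D3:**
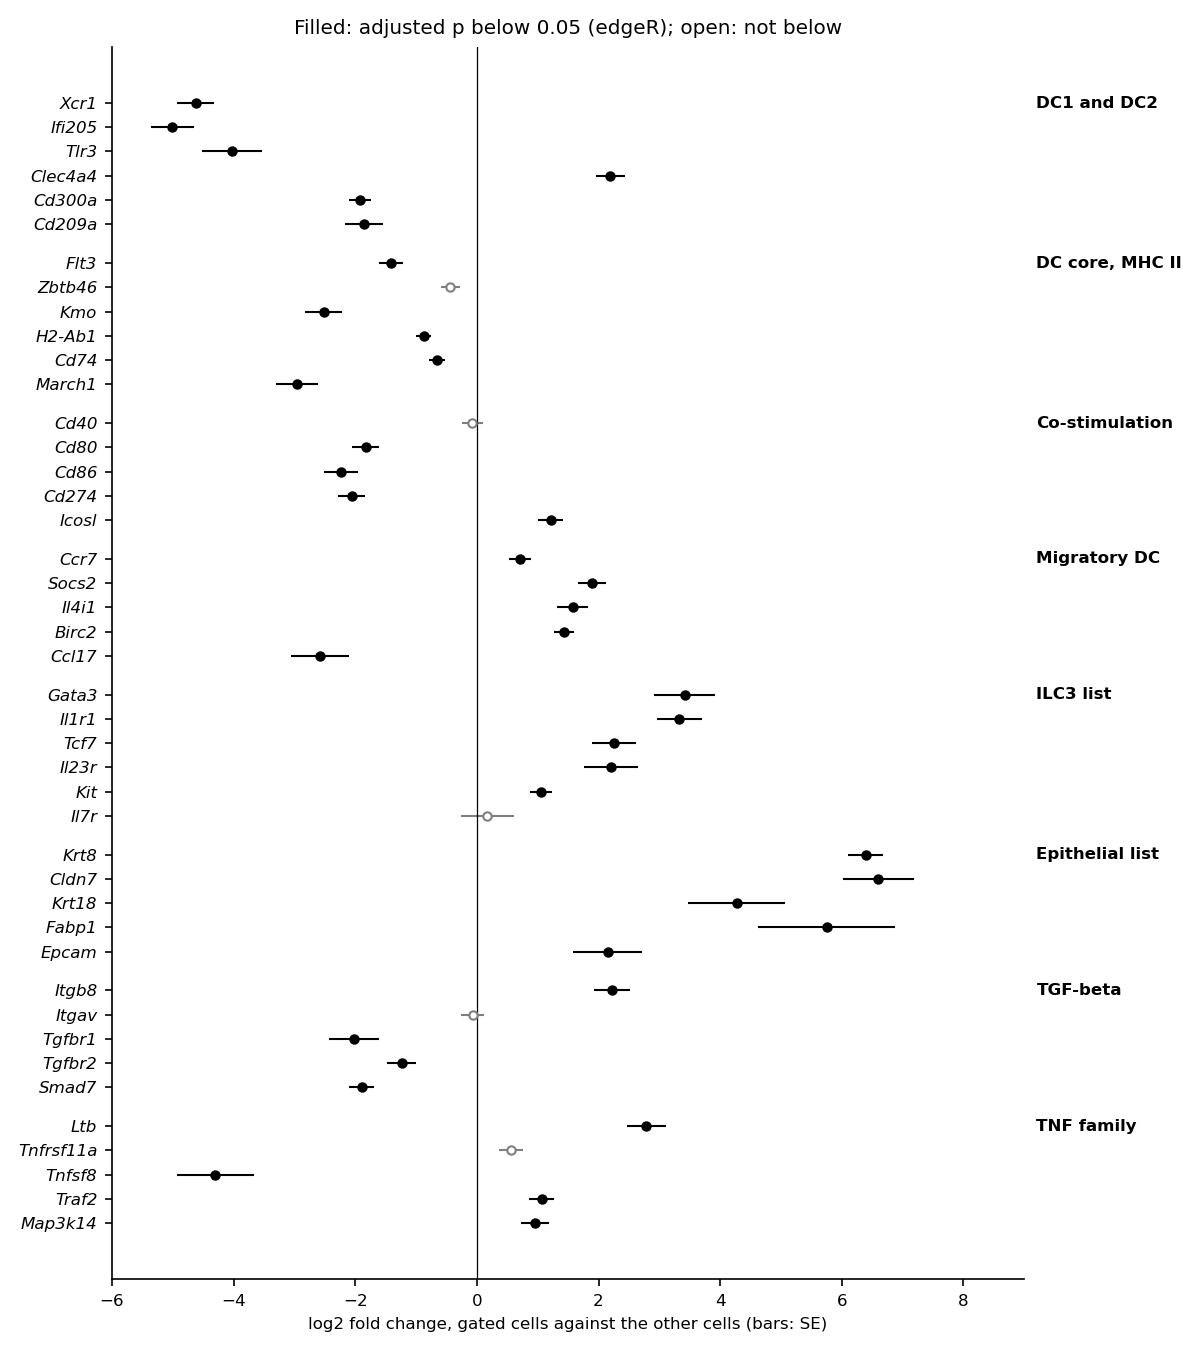
Log2 fold change of named genes, gated cells against the other cells of the same hashtag (x axis, bars are SE of the edgeR fit over 5 hashtags), grouped by gene list. Filled points are called and open points are not. Ifi205 and Xcr1 lie farthest left of 0 and Cldn7 and Krt8 farthest right.

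Genes shared with ILC3 rose in part. Of 12 tested members of the ILC3 list of 15 genes, 7 were called higher and 1 lower. Gata3, a lymphoid transcription factor gene, stood at 25.6, 89.6, 31.4, 18.3, 0 and 14.5 CPM against 0.350 to 10.2 CPM (log2 fold change 3.42 ± 0.50, adjusted p = 0.000207), with hashtag 4 above the rest. Il1r1, an interleukin 1 receptor gene, stood at 36.6, 76.3, 34.0, 34.8, 71.9 and 40.4 CPM against 1.20 to 9.50 CPM (log2 fold change 3.33 ± 0.37, adjusted p = 2.30e-05). Tcf7 (log2 fold change 2.25 ± 0.36, adjusted p = 0.000412), Il23r (log2 fold change 2.21 ± 0.44, adjusted p = 0.00241) and the stem cell factor receptor gene Kit (log2 fold change 1.05 ± 0.18, adjusted p = 0.000703) rose as well. Thy1, the member called lower, was at least 1.45-fold lower than in the other cells, with 3 UMIs over all gated cells as the floor, and its call was lost with DESeq2 and without hashtag 2, 4 or 5. Il7r, the interleukin 7 receptor gene, stood at 333, 179, 293, 18.3, 115 and 9.69 CPM against 35.7 to 159 CPM and was not called over the 5 hashtags (log2 fold change 0.17 ± 0.44, adjusted p = 0.825). It was above the other cells in hashtags 2, 4 and 5 and below them in 6 and 9.

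Among transcription factors of lymphoid tissue inducing and RORgt+ cells, 5 of 30 tested were called higher and 12 lower. Aire, the thymic regulator of tissue antigens, stood at 307, 89.6, 290.5, 11.0, 0 and 6.46 CPM in gated cells and 0.400 to 8.90 CPM in the others (log2 fold change 4.37 ± 0.38, adjusted p = 2.37e-06). It was read in 38 cells, with 13, 9, 12, 3, 0 and 1 in hashtags 2, 4, 5, 6, 8 and 9. Nfil3, at 46.4 to 159.5 CPM against 12.8 to 55.5 CPM, and Spib (log2 fold change 1.93 ± 0.29, adjusted p = 0.000268) rose as well. Runx1 (log2 fold change -3.37 ± 0.24, adjusted p = 4.32e-07) and Zfp366, which encodes DC-SCRIPT (log2 fold change -3.37 ± 0.30, adjusted p = 3.04e-06), were the largest falls that the rule named from this list.

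Of the TGF-beta genes, one rose. Itgb8, the integrin chain that activates latent TGF-beta, stood at 109.7, 153, 385, 5.50, 158 and 1.62 CPM in gated cells and 1.06 to 43.3 CPM in the others (log2 fold change 2.22 ± 0.30, adjusted p = 9.90e-05). Its level was high in hashtags 2, 4 and 5 and near 0 in 6 and 9, and the 158 CPM of hashtag 8 came from 1 of its 4 cells. Itgb8 was read in 35 cells, with 30.3% of UMIs in 1 cell, and after thinning to 2000 UMIs in 10.3% of gated cells, 11.9% of migratory cells and 1.38% of the others. Its partner Itgav stood at 47.5 to 144 CPM and was not called (log2 fold change -0.07 ± 0.19, adjusted p = 0.846). In hashtags 6 and 9 alone, with no library of hashtag 8, the Itgb8 value was 1.13 (adjusted p = 0.483), against 2.48 in 2, 4 and 5. Of the 19 genes of the list tested, 1 was called higher, which was Itgb8, and 9 lower, among them the receptor genes Tgfbr1 (log2 fold change -2.02 ± 0.41, adjusted p = 0.00259) and Tgfbr2 (log2 fold change -1.24 ± 0.23, adjusted p = 0.00140) and the inhibitor gene Smad7 (log2 fold change -1.89 ± 0.20, adjusted p = 1.33e-05).

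Ltb, which encodes lymphotoxin beta, stood at 505, 819, 597, 708, 1092 and 532 CPM in gated cells and 23.2 to 159 CPM in the others (log2 fold change 2.79 ± 0.32, adjusted p = 3.12e-05), with no overlap, and was read in 113 of 137 cells. Thinned to 2000 UMIs, a Ltb UMI was left in 52.9% of gated cells and 9.94% of the others. Of the 14 tested ligands of the family 2 were called higher and 5 lower. The other one higher was Tnfsf11, which encodes RANKL (log2 fold change 2.73 ± 0.89, adjusted p = 0.0397), read in hashtags 6 and 9 alone at 38.5 and 25.8 CPM. Its call was lost with DESeq2 (adjusted p = 0.249), without hashtag 6 (0.286) and without hashtag 9 (0.254). Map3k14, the kinase gene of the non-canonical NF-kB route (log2 fold change 0.96 ± 0.23, adjusted p = 0.00846), and Traf2 (log2 fold change 1.07 ± 0.21, adjusted p = 0.00183) were among 6 of 23 NF-kB genes called higher, with 2 called lower. Tnfrsf11a, which encodes RANK, stood at 216, 245, 332, 47.7, 28.7 and 38.8 CPM and was not called (log2 fold change 0.56 ± 0.20, adjusted p = 0.0601), but was called with DESeq2 and without hashtag 9.

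Cytokines and retinoic acid genes gave few rises. Il23a, a subunit of interleukin 23, was the 1 cytokine gene of 15 tested called higher, and 9 were called lower. It stood at 14.6, 3.32, 5.23, 86.2, 71.9 and 63.0 CPM against 0.965 to 22.4 CPM (log2 fold change 2.03 ± 0.36, adjusted p = 0.00102), with 27.6% of its UMIs in 1 cell, and was not called in hashtags 2, 4 and 5 alone. Of 27 cytokine receptor genes 4 were called higher, Kit, Il18r1, Il23r and Il1r1, and 15 lower. Aldh1a2, the retinoic acid enzyme gene of tolerogenic dendritic cells, stood at 113, 43.1, 99.4, 27.5, 28.7 and 25.8 CPM against 11.1 to 54.3 CPM, and its difference was not called (log2 fold change 0.70 ± 0.26, adjusted p = 0.0665). It passed the threshold without hashtag 4 (adjusted p = 0.0144) and with DESeq2 (0.0452).

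Receptors for microbes and for uptake were mainly lower, with single members raised. Of 23 pattern recognition genes 12 were called lower (7 without hashtag 9), and Tlr12, a profilin-sensing receptor gene, was the 1 called higher, at 54.9, 82.9, 55.0, 110.0, 129 and 123 CPM against 6.40 to 16.4 CPM (log2 fold change 2.78 ± 0.22, adjusted p = 8.43e-07). Of 23 uptake genes 10 were called lower and 4 higher. Among the latter were the scavenger receptor genes Stab1 (log2 fold change 3.53 ± 0.41, adjusted p = 2.81e-05) and Stab2 (log2 fold change 4.62 ± 0.53, adjusted p = 2.84e-05). The mannose receptor gene Mrc1 had 0 UMIs in the gated cells and was at least 10.6-fold lower by pooled CPM, with 3 UMIs over all gated cells as the floor. In the lysosome list, with 2 called higher and 9 lower of 18, Lamp1 stood at 1039, 899, 1021, 596, 747 and 596 CPM against 111 to 221 CPM (log2 fold change 2.07 ± 0.15, adjusted p = 4.12e-07) while the saposin gene Psap fell (log2 fold change -2.70 ± 0.15, adjusted p = 4.41e-08). Early response genes, which also move with tissue dissociation, were called lower in 11 of 18 and higher in 0. Without hashtag 5, 6 or 9 the lower count was 7, 5 or 4, and with relative log expression scaling 6. The counts were 3 lower and 2 higher in hashtags 2, 4 and 5 alone, and 14 lower and 2 higher in 6 and 9 alone. Over all genes the fit of hashtags 2, 4 and 5 called 1219 higher and 1595 lower of 13434. That of 6 and 9 called 1537 higher and 2259 lower of 13249. The part of dissociation in the other values was not tested.

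The contrast was also set side by side in hashtags 6 and 9 and in hashtags 2, 4 and 5. No label groups the hashtags in this way: the trios were taken from the depth of these libraries in earlier results, so what follows describes that split and its p-values, which are not printed, are no independent evidence. By the threshold used above, the difference of the contrast was called in 1237 of 13951 genes (8.87%), with 363 more positive (2.60%) and 874 more negative (6.26%) in hashtags 6 and 9. It compares 2 hashtags with 3 that also differ in depth, and a difference can arise in the other cells, so both levels are given. Fabp1 was one of the most negative (log2 difference -6.57 ± 0.42), with gated cells at 3.67 and 35.5 CPM in hashtags 6 and 9 and the other cells at 0.526 to 5.35 CPM in all hashtags. Plxna4, a semaphorin receptor gene, stood at 388, 259 and 379 CPM in hashtags 2, 4 and 5 and at 36.7 and 9.69 CPM in 6 and 9 (log2 difference -5.16 ± 0.38). Sorcs2 stood at 278, 196 and 256 CPM and at 3.67 and 1.62 CPM (log2 difference -3.66 ± 0.95). Il7r stood at 333, 179 and 293 CPM and at 18.3 and 9.69 CPM (log2 difference -3.06 ± 0.37), with the other cells at 35.7 to 159 CPM. In these 4 genes the gated levels of hashtags 6 and 9 lay below those of 2, 4 and 5.

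For other genes the level of the other cells differed between the trios. The contrast of Ltb differed (log2 difference 1.91 ± 0.22), but its gated level overlapped between the trios, and the other cells stood at 144, 140.4 and 159 CPM in hashtags 2, 4 and 5 and at 29.9 and 27.6 CPM in 6 and 9. Epcam stood at 109.7, 146 and 115 CPM in gated cells of hashtags 2, 4 and 5 and at 158 and 134 CPM in 6 and 9, while the other cells stood at 9.12, 10.5 and 7.69 CPM and at 91.8 and 106 CPM (log2 difference -3.62 ± 0.30). Cadm1, an adhesion gene of cDC1, differed on both sides (log2 difference -4.11 ± 0.28). Its gated cells stood at 366, 299 and 319 CPM and at 64.2 and 25.8 CPM, and the other cells at 246, 239.8 and 264 CPM and at 494 and 367 CPM. For Aire and Itgb8 the difference of the contrast was not called (log2 difference -1.28 ± 0.62 and log2 difference -1.49 ± 0.72). The other cells held Aire at 6.40, 8.71 and 8.90 CPM in hashtags 2, 4 and 5 and at 0.725 and 0.444 CPM in 6 and 9, and Itgb8 at 23.2, 37.4 and 43.3 CPM and at 1.43 and 1.06 CPM.

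Cell cycle genes also went by trio. Over all 5 hashtags 4 of 19 were called lower and 0 higher, and without hashtag 2, 4, 5 or 9 the lower count was 1, 1, 0 or 2. In hashtags 2, 4 and 5 alone 8 were called lower and 0 higher, and in 6 and 9 alone 6 higher and 1 lower. Over all genes these 2 fits called 1219 higher and 1595 lower of 13434, and 1537 higher and 2259 lower of 13249. The difference of the contrast was called more positive in hashtags 6 and 9 for 9 of 19, and for 2.60% of all genes. The proliferation marker gene Mki67 stood at 40.2, 0, 10.5, 123, 115 and 77.5 CPM in gated cells (log2 difference 1.86 ± 0.41), and was read in 3, 0, 3, 10, 1 and 11 gated cells of hashtags 2, 4, 5, 6, 8 and 9. Thinned to 2000 UMIs, at most 2 gated cells per hashtag kept a Mki67 UMI. Ube2c, a mitotic ubiquitin ligase gene, stood at 3.66, 0, 5.23, 199.8, 0 and 45.2 CPM, with 55.0% of its UMIs in 1 cell.

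**Figure D4:**
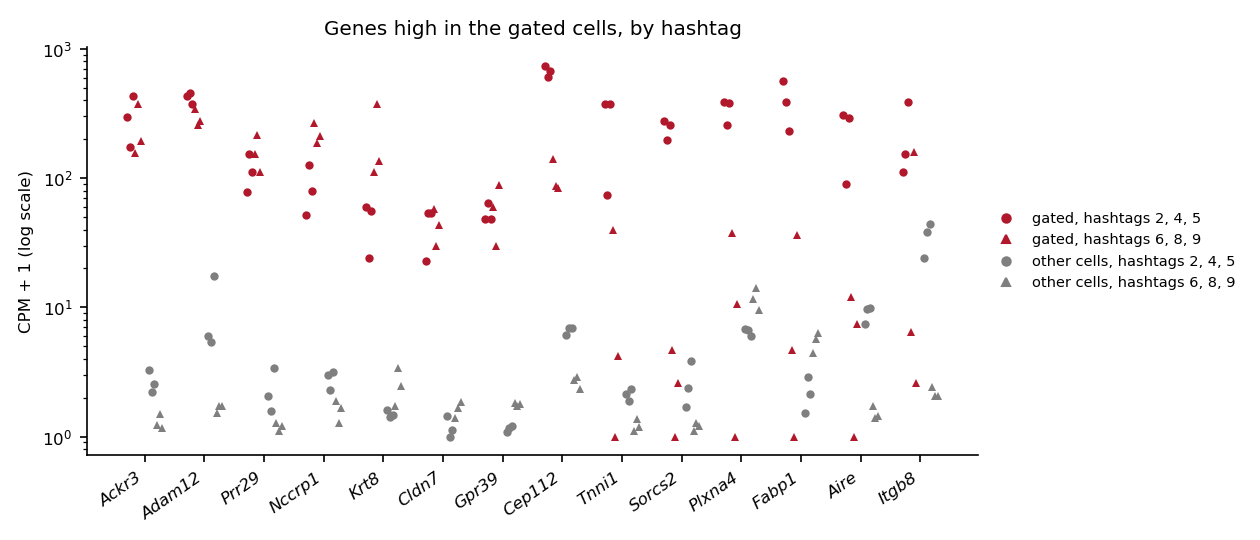
Level of 14 genes (y axis, CPM + 1, log scale) in each hashtag, for gated cells (red) and the other cells (grey), circles for hashtags 2, 4 and 5 and triangles for 6, 8 and 9. Ackr3 to Cep112 lie above the other cells in all hashtags, and Plxna4 to Aire are high in gated cells of hashtags 2, 4 and 5 and low in 6, 8 and 9.

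Aire and Itgb8 were read together in part of the cells. In the 136 gated cells of at least 2000 UMIs, 20 had UMIs of both, 18 of Aire only, 14 of Itgb8 only and 84 of neither. Of 34 such cells with an Itgb8 UMI, 28 also had a Ccr7 UMI and 23 an Il7r UMI. Within hashtags 2, 4 and 5 the counts with both Aire and Itgb8 were 6, 5 and 7 of 27, 26 and 31 cells. Depth differs between cells, so these counts are a description of reads.

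Migratory dendritic cells and ILC3 were gated on raw UMIs. Each was contrasted with the Prdm16-gated cells in 1 fit of 5 gates, with the hashtag as a block. Migratory cells were taken as Ccr7 and Fscn1 at 3 or more UMIs with at most 1 Prdm16 UMI, which gave 642 cells. Against them 1775 of 12982 genes were called higher (13.7%) and 1897 lower (14.6%) in the gated cells. The 12 migratory genes tested besides the gate's own were called lower in 10 and higher in 0. MHC class I genes were called lower in 13 of 15 and co-stimulatory genes in 13 of 17, with 0 higher in either. MHC class II genes were called lower in 5 of 17 (3 without hashtag 6) and higher in 1, and neither H2-Ab1 nor Cd74 was called (log2 fold change -0.08 ± 0.17, adjusted p = 0.775 and log2 fold change -0.39 ± 0.16, adjusted p = 0.0631). Epithelial genes were called higher in 7 of 8. Adam12 (log2 fold change 8.84 ± 0.32, adjusted p = 8.86e-14), Cd7, a lymphoid surface gene (log2 fold change 6.77 ± 0.45, adjusted p = 2.84e-10), and Ltb (log2 fold change 3.41 ± 0.43, adjusted p = 3.13e-06) were higher, and Ccl5 (log2 fold change -6.24 ± 0.38, adjusted p = 6.16e-11) and the interleukin 12 subunit gene Il12b (log2 fold change -6.71 ± 0.82, adjusted p = 3.20e-06) lower. Itgb8 was not called (log2 fold change 0.08 ± 0.53, adjusted p = 0.946), with migratory cells at 95.7, 129 and 160.0 CPM in hashtags 2, 4 and 5. With its SE, that difference of Itgb8 leaves room for a change of either sign. Aire was higher than in migratory cells (log2 fold change 2.93 ± 0.48, adjusted p = 8.24e-05), which stood at 4.67 to 14.1 CPM.

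ILC3 were taken as Il7r at 2 or more UMIs, Rora at 1 or more and at least 2 UMIs of Thy1, Il23r, Il22 and Il17f together. They numbered 42. Hashtags 4 and 5, with 10 and 25 cells, were the ones with enough for a summed library, so ILC3 entered with 2 libraries. Gated libraries of other hashtags entered the fit too, so its fold changes are not the differences within hashtags 4 and 5 alone. Of 12980 genes, 789 were called higher (6.08%) and 604 lower (4.65%). Higher calls were 56.6% of calls here and 42.3% with DESeq2. Without hashtag 5 the count of calls fell from 1393 to 283, and without hashtag 4 to 664. Dendritic cell core genes were called higher in 12 of 18 and MHC class II genes in 9 of 17, with 0 lower, and the counts were 7 and 6 without hashtag 5 and 6 and 4 without hashtag 4. T and NK cell genes were called lower in 7 of 11, and in 4 without hashtag 5. Ltb stood at 1177 and 1013 CPM in ILC3 of hashtags 4 and 5 and was not called (log2 fold change 0.10 ± 0.56, adjusted p = 0.956). Gata3 was not called either (log2 fold change -0.07 ± 1.35, adjusted p = 0.996). The anti-apoptotic gene Bcl2 (log2 fold change -6.71 ± 0.58, adjusted p = 7.95e-08) and Runx1 (log2 fold change -3.48 ± 0.34, adjusted p = 3.90e-07) were lower in gated cells than in ILC3. Gm38411 stood at 109.9 and 94.7 CPM in ILC3 of hashtags 4 and 5, close to its 92.9 and 68.0 CPM in gated cells.

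**Figure D5:**
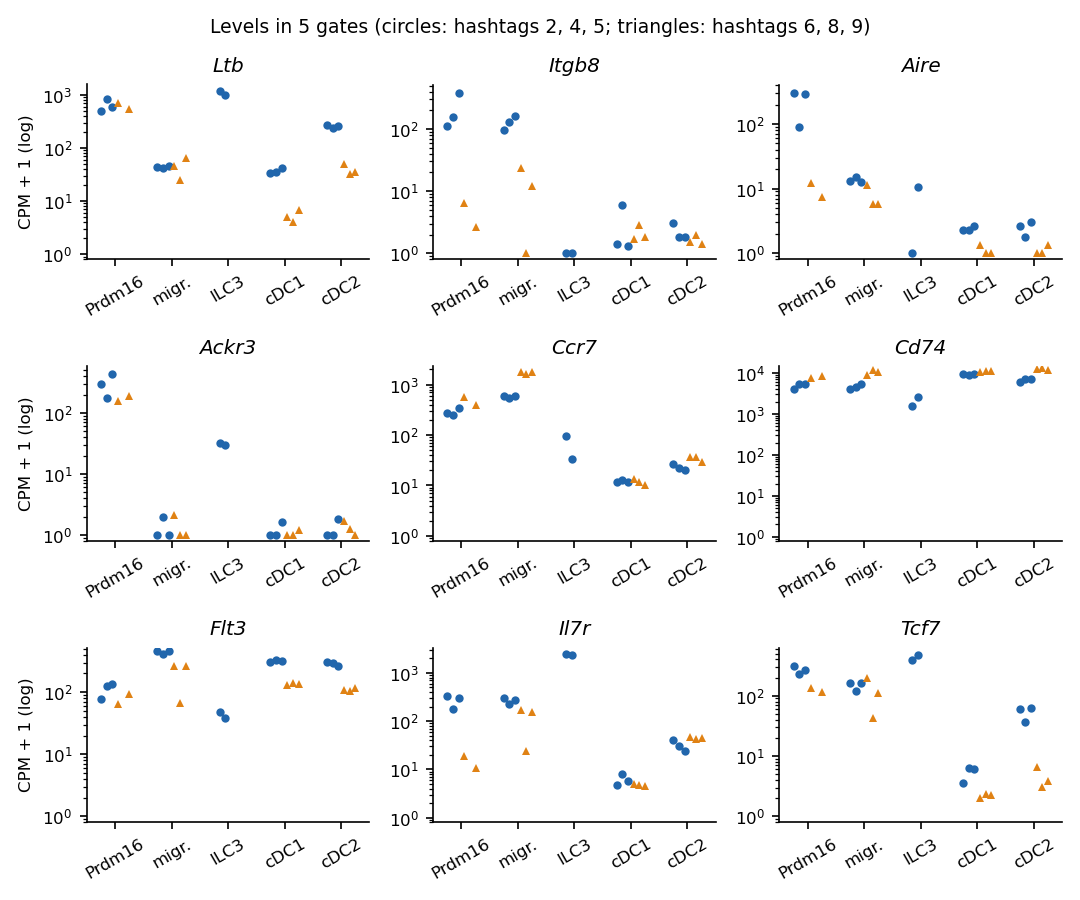
Level of 9 genes (y axes, CPM + 1, log scale) in cells of the Prdm16, migratory, ILC3, cDC1 and cDC2 gates, 1 point per hashtag with at least 10 cells of that gate. Ackr3 is highest in the Prdm16 gate, Ltb is high in the Prdm16 and ILC3 gates, and Itgb8 is high in the Prdm16 and migratory gates of hashtags 2, 4 and 5.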

How the data were processed

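Poly(A) RNA and hashtag antibody tags were measured with the Chromium 3′ v3 kit, per the labels' protocols, and processed by the authors with Cell Ranger 8.0.1 on mm10, per the submitters' processing notes. The deposited matrix holds raw UMI counts of 32289 gene features and 6 hashtag features in 3247803 barcodes, and the deposited assignment table gives for 27679 barcodes a hashtag call with its probability as a fraction, per the file headers. No source used here says whether intronic reads entered the counts.

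Single-hashtag barcodes with at least 500 genes and at most 10% mt- UMIs were kept, which removed the deposited multiplets. No doublet caller was run. As alternatives, cells above 50000 UMIs or with an assignment probability under 0.99 were left out. No barcode was in more than 1 hashtag. Counts were summed per hashtag and gate where at least 10 cells were present, and fitted with edgeR 4.0.16 (R 4.3.3; TMM, filterByExpr, quasi-likelihood test, Benjamini-Hochberg adjusted p below 0.05). The hashtag was the block, since both classes of cells in a pair come from the same replicate. The gated fit used 5 pairs (4 residual degrees of freedom, 3 for the trio difference), and the fit of 5 gates had 15. The fits ran on simulated counts with known changes first. Levels are CPM of summed counts. DESeq2 1.42.0, other gates and other filters were alternatives. Python 3.11.15, numpy 2.4.6, scipy 1.17.1, pandas 2.3.3 and matplotlib 3.10.9 were used otherwise.

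The members and gene lists were chosen with earlier results of these data known. Named genes were the gate, marker and reporter genes (no call), a few chosen whatever their result, up to 3 called members per list, the 10 highest and 10 lowest of the first contrast and the 5 highest and 5 lowest of the others, with an average log2 CPM of at least 5 and one sign in all pairs. Others were chosen after their values were seen, among them Epcam, H2-Ab1, Cd74, Cd80, Cd86, Icosl, Tcf7, Il23r, Il7r, Nfil3, Spib, Tlr12, Stab1, Il23a, Tgfbr1, Tgfbr2, Smad7, Tnfsf11, Birc2, Fabp2, Thy1 and Mrc1. Some genes are not reported here.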

Additional observations from a re-analysis of the deposited data

Results flagged for a closer look

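Of 154 results checked, 8 had 1 hashtag far from the rest of the gated cells and 34 differed between hashtags 6 and 9 and hashtags 2, 4 and 5. Chance puts 1 sample that far out in about 1 in 20 groups. Hashtag 4 held Gata3 at 89.6, Il1r1 at 76.3, Bcl11a at 82.9 and Ccr2 at 13.3 CPM, above the other large libraries. Hashtag 5 held C1qc at 13.1 CPM and hashtag 6 held Top2a at 103 CPM, both above the others. Hashtag 9 held Stab1 at 80.8 CPM, above the others, and Ido2 at 1.62 CPM, below them.

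The differences between the trios are log2 differences of the contrast with the other cells, hashtags 6 and 9 minus 2, 4 and 5 (edgeR's quasi-likelihood test, Benjamini-Hochberg adjusted), and can arise from either class of cells. The trios come from the depth of these libraries and not from a label, so the calls describe that split and are no independent evidence. Among genes high in the gated cells, the difference was positive for Ackr3 (1.86), Prr29 (2.23), Adam12 (2.73), Nccrp1 (2.34), Ltb (1.91), Tcf7 (2.14), Socs2 (1.17), Il4i1 (1.32) and Tnfsf11 (11.19, with 0 UMIs in gated cells of hashtags 2, 4 and 5, so its size depends on the prior count). It was negative for Sorcs2 (-3.66), Cep112 (-1.15), Grifin (-2.41), Epcam (-3.62), Stab1 (-1.79), Stab2 (-2.84), Icosl (-0.85), Map3k14 (-1.2), Ccr7 (-0.69) and Bst2 (-0.73). Among genes lower in the gated cells it was positive for March1 (1.79), Mki67 (1.86), Top2a (1.19), Ccl5 (2.65), Ccl17 (3.26), Bcl11a (1.17), Cst3 (0.56) and Itgax (0.96). It was negative for P3h2 (-2.74), Nfkbiz (-0.89), Egr3 (-2.39), Cd74 (-0.66), Cd86 (-1.37) and Tgfbr1 (-2.73). For Il7r, whose contrast over the 5 hashtags was not called, it was -3.06. For Top2a, at 34.0 to 103 CPM in gated cells and 54.6 to 124 CPM in the others, it was 1.19.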

How the results depend on the processing

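Without the hashtag as a block, the contrast with the other cells had 1531 calls in place of 3245 (711 higher and 820 lower), and the contrast with migratory cells had 1165 lower in place of 1897. Under the other planned settings run for these counts, and with the setting added after seeing the data (libraries of at least 3 cells), they stayed within 1.5 times, apart from leaving out 1 hashtag. Leaving out 1 hashtag gave 2489 to 2824 calls against the other cells and 2646 to 3815 against migratory cells. Against ILC3 it gave 283 to 1407 calls (138 to 793 higher, 145 to 643 lower), with 664 without hashtag 4 and 283 without hashtag 5. For the difference between the trios it gave 624 to 1230 calls (172 to 396 more positive, 452 to 834 more negative), with 822, 624 and 695 without hashtag 5, 6 and 9. In hashtags 2, 4 and 5 alone the log2 fold change of Ripor2 turned to -0.58. In hashtags 6 and 9 alone, as hashtag 8 had too few gated cells for a library, those of Prkg1, Ube2c, Il7r and Irf8 turned to -0.39, 1.63, -1.85 and 0.39. The cause was not tested. A gene with few UMIs over 137 cells is limited by depth, and a count of 0 allows up to 1.37 CPM.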
